A study of Mus musculus with 6 samples.

Results

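Endothelial cells, which line blood and lymphatic vessels, were a minor class in a single-cell RNA data set made to characterise embryonic osteoclast precursors, macrophage-lineage cells that mature to resorb bone. They were picked from the deposited count matrix by their transcripts. A barcode was kept when it held at least 1000 unique molecular identifiers (UMIs, counted transcripts), at least 500 genes and at most 10% mitochondrial UMIs. It was taken as endothelial when at least 3 of the 6 genes Cdh5, Kdr, Tie1, Egfl7, Emcn and Pecam1 had a UMI, Cdh5, Kdr and Tie1 together had at least 3, Csf1r had at most 3, and Col1a1 and Col1a2 together had fewer than 8. The rule found 267 cells among 34587 kept cells of 39048 barcodes, a share of 0.772% (exact Clopper-Pearson 95% interval 0.682 to 0.870).

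The labels describe 6 samples in 3 groups of 2. In the first group the embryos were Cx3cr1CreER; R26tdTomato, and the pregnant female received 4-hydroxytamoxifen at E9.5. In the second they were Csf1r-Mer-iCre-Mer; Csf1r-EGFP; R26tdTomato, with the drug at E8.5. In both, cells of the macrophage and monocyte lineage were taken from whole bodies at E14.5. The third group was total bone marrow of 2-month-old wildtype C57BL/6 mice without the drug. Both Cre lines are driven by genes of the macrophage lineage, and recombination switches on the red fluorescent protein tdTomato permanently, in the cell and its progeny. The labels do not say how endothelial cells came to be in suspensions prepared for another lineage. Each barcode ends in a number, 1 to 4, for its library, and the labels do not name these numbers, so the 4 libraries are called 1 to 4, no library was assigned to a genotype, a drug day or an age, and whether adult cells are among the 267 was not decided. The deposited matrix is named for Cx3cr1 and Csf1r and not for bone marrow, but its name does not say which library is which. With cells of 1 pooled matrix there is no replicate of a condition, and no test was made. Intervals below cover counting error only.

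Endothelial cells share a core programme. Vascular endothelial growth factor (VEGF) signals through the receptor tyrosine kinases Kdr, Flt1 and Flt4, angiopoietins signal through Tek and its partner Tie1, and VE-cadherin, the product of Cdh5, ties neighbouring cells together. On top of this core the vessels of each organ have their own transcripts. Liver sinusoids have scavenger receptors that clear waste from blood, brain capillaries have tight junctions and nutrient carriers, and lymphatic vessels depend on the transcription factor Prox1. In the fetus the liver is also a site of blood formation, where sinusoids, blood progenitors and macrophages lie side by side.

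Promoters of the defining markers are shown because all the cells were chosen on the transcripts that start there. RefSeq sequences (build GRCm38.p6, 250 bases before to 50 after a transcript start, 5′ to 3′ on the strand of the gene) were found for Kdr (minus strand, chr5:75978406-75978705), Tie1 (minus strand, chr4:118489800-118490099) and Egfl7 (plus strand, of which the window at chr2:26583615-26583914 is printed). Capitals mark a match to CAGGAAG, a form of the core bound by ETS transcription factors. No Cdh5 window was among the sequences, so its promoter is named only.

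Kdr: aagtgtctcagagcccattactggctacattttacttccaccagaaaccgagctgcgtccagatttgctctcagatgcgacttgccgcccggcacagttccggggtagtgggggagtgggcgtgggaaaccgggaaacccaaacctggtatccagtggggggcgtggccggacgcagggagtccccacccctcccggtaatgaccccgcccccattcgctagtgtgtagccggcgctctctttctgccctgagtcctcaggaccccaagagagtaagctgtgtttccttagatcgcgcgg
Tie1: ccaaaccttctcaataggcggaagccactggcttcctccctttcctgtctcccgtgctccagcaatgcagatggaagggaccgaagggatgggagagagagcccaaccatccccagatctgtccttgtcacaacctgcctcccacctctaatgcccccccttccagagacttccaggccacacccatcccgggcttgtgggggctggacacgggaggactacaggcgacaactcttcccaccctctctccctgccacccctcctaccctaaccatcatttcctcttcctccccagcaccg
Egfl7: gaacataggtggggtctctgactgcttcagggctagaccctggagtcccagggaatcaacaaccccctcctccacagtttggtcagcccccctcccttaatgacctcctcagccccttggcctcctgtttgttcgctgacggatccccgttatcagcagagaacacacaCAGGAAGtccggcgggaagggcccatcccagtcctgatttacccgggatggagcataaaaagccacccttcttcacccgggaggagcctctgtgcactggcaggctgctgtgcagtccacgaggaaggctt

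Both strands of each window were searched for the ETS form CAGGAAG, for another ETS form, CCGGAAG, for the GATA motif AGATAA and for the SOX motif ACAAAG, which were counted separately. The Kdr and Tie1 windows held no match, which says only that these letters are not in these 300 bases. Of the Egfl7 windows not printed, that at chr2:26580833-26581132 held 2 matches to CAGGAAG and that at chr2:26586386-26586685 held 1 to ACAAAG. Among 329 windows of genes at least 4-fold higher in the endothelial cells than in all other kept cells, CAGGAAG was in 17.3%, against 13.0% of 6723 windows of all genes compared and 13.3% of 32851 windows in all. CCGGAAG was in 3.34%, against 19.5% and 8.86%. AGATAA was in 9.42%, against 6.34% and 11.2%, and ACAAAG in 11.9%, against 13.3% and 18.7%. These shares are a description of letters and show no binding.

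The cells were spread unevenly over the libraries. Library 1 held 114, or 1.36% of its kept cells (95% interval 1.12 to 1.63). Library 2 held 73, or 1.03% (0.811 to 1.30), library 3 held 35, or 0.486% (0.339 to 0.676), and library 4 held 45, or 0.376% (0.275 to 0.503). Libraries 1 and 2 were thus above libraries 3 and 4, with no overlap of the intervals. Macrophages, cells with Csf1r above 3 UMIs and at least 10 C1q UMIs, also took a larger share of libraries 1 and 2 (61.7% and 66.2%) than of libraries 3 and 4 (36.1% and 35.02%), and whether this sets the endothelial shares was not tested. The endothelial cells had a median of 13387 UMIs (range 1212 to 89854), against 13729 over all kept cells, and 4801256 UMIs in all. Of the 34007 barcode sequences kept, 571 occurred in more than 1 library, and 7 of the endothelial cells had such a sequence.

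**Figure D1:**
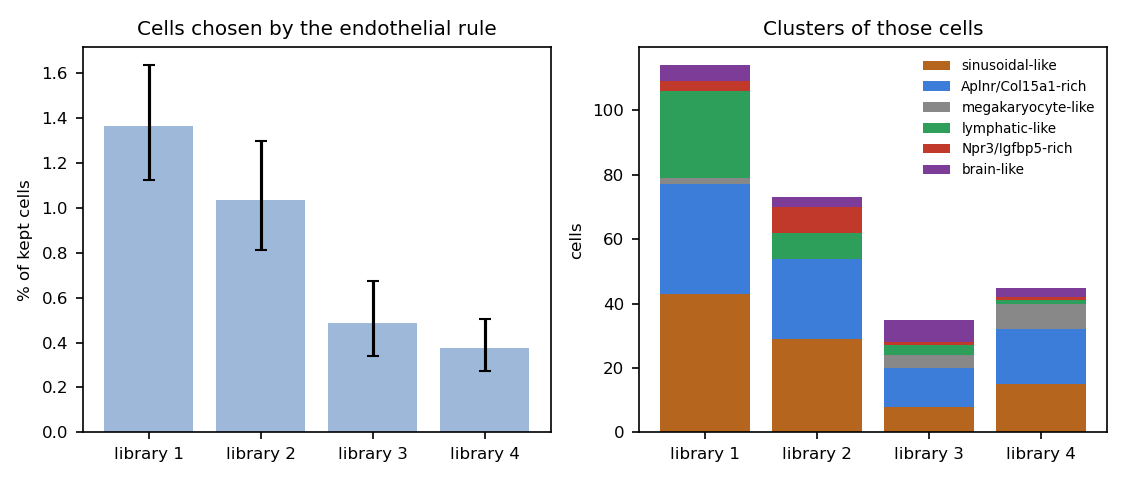
Left, cells chosen by the endothelial rule as a percentage of kept cells in each library, with exact 95% binomial intervals; right, the number of these cells in each of 6 clusters, by library. The share was 1.36% in library 1 and 0.376% in library 4, and 8 of the 14 megakaryocyte-like cells were in library 4.

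The 6 rule genes were high, as the rule requires, and their values only describe the choice. All 6 were present in 165 of the 267 cells, and Cdh5 was present in 252. Summed over the cells, Cdh5 stood at 459 CPM (counts per 1000000 UMIs of the class) (95% Poisson interval 440 to 478), and in libraries 1 to 4 it stood at 500, 635, 357 and 299. Kdr, the main VEGF receptor, stood at 414, 444, 278 and 272 CPM. Tie1, Egfl7 (a secreted factor of the vessel wall), Emcn (a sialomucin) and Pecam1 (CD31) stood at 201, 752, 307 and 336 CPM over all libraries. At the edge of the rule, 13 cells had exactly 3 UMIs of Cdh5, Kdr and Tie1 and 14 others with 2 just missed. The allowed 3 Csf1r UMIs were present in 8 cells, and 5 cells with 4 just missed. In all, 57 cells that met the rest of the rule were left out for having more than 3 Csf1r UMIs.

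The label held for most but not all of the cells. The 267 cells fell into 6 clusters, made without tdTomato and without the 15 gene lists described below. In 1 cluster of 14 cells the endothelial markers were low or near 0 and those of megakaryocytes, the platelet-forming cells, were high. Cdh5 was at 1.15 CPM there, Kdr at 59.8 and Tie1 at 40.2, whereas Pf4 (platelet factor 4) was at 32188, Ppbp (a platelet chemokine) at 5040, Gp9 at 1148 and Itga2b, both parts of platelet adhesion receptors, at 749. All 8 megakaryocyte markers were at least 2-fold higher than in the remaining cells. These megakaryocyte-like cells numbered 2, 0, 4 and 8 in libraries 1 to 4 and were deep, with a median of 60856.5 UMIs, so that 5.24% of the cells gave 18.1% of the UMIs. Values per library, above and below, include them unless stated or given for a cluster. As most of them lay in libraries 3 and 4, they lower genes such as Cdh5 and Kdr there. Other results that rest on them are given with and without them. The 253 cells left had Cdh5 at 560 CPM and Kdr at 431.

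Markers of macrophages, mesenchymal cells, red cells and hepatocytes were far below their levels in those classes. The summed level of 10 macrophage markers was 775 CPM in the endothelial cells (710 to 807 over the libraries), 743 in mesenchymal cells, the connective-tissue cells with at least 8 UMIs of Col1a1 and Col1a2, and 17332 in macrophages. None of the 10 was at 0. The 9 mesenchymal markers summed to 84.8 CPM (15.8 to 109), against 9327 in mesenchymal cells, and 1 of them was at 0. The 10 haemoglobin and red-cell markers summed to 1997 CPM (741 to 4955), against 92902 in erythroid cells and 1272 in mesenchymal cells, and 8 hepatocyte markers to 285 CPM (96.6 to 462), against 103790 in hepatocytes. Megakaryocyte markers summed to 7484 CPM, and to 170 without the megakaryocyte-like cells. The 8 granulocyte or monocyte markers summed to 290 CPM (24.3 to 1110, highest in library 3), against 678 in mesenchymal cells and 919 in macrophages. The part of free RNA or mixed droplets in these levels was not tested.

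Against all other kept cells, 338 of 6635 genes (5.09%) were at least 4-fold higher in the endothelial cells and 223 (3.36%) at least 4-fold lower, on the scale of log2(CPM + 10) and counting genes with at least 20 CPM in either class. That scale understates differences of low genes. With TMM scaling (a factor that lines up the bulk of genes) the counts were 300 and 288, and the median of all genes shifted by -0.25. Without the megakaryocyte-like cells 363 genes were at least 4-fold higher. The comparison uses the same cells and contrast as the rule, so it is a description. Macrophages made up 48.1% of kept cells, and the lists below are therefore set against the 629 mesenchymal cells, the other stromal class. There 616 of 7080 genes (8.7%) were at least 2-fold higher in the endothelial cells, 700 (9.89%) at least 2-fold lower, and the median of all genes was -0.02.

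Receptors for VEGF were among the signalling genes that were higher. Of 9 VEGF receptors and ligands, 6 passed the filter, 4 were at least 2-fold higher and none lower, with a median log2 difference of 2.39; Kdr is a rule gene. Flt1, a VEGF receptor that also acts as a decoy, was at 190, 245, 169 and 147 CPM in libraries 1 to 4, against 1.97 in mesenchymal cells, a log2 difference of 4.05. Flt4, the receptor for VEGF-C, was at 138, 125, 61.9 and 44.7 CPM (difference 3.37), so that library 1 was highest and library 4 lowest. The megakaryocyte-like cells, counted in here, had no Flt4 UMI. The co-receptor Nrp2 was at 162 CPM (1.42), and Nrp1 at 172 CPM was close to mesenchymal cells (0.22). The ligands were scarce in the endothelial cells: Vegfa was at 4.79 CPM and Vegfc at 15.6.

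In the angiopoietin and Tie list, 3 of the 4 genes that passed the filter were at least 2-fold higher and 1 lower (median 2.49), Tie1 being a rule gene. Tek, the angiopoietin receptor, was at 68.8, 82.1, 43.7 and 48.3 CPM, against 5.64 in mesenchymal cells (2.22). Ptprb, the phosphatase that restrains Tek, was at 57.7 CPM and had no UMI in mesenchymal cells. Angpt1, a ligand of Tek, was at 14.8 CPM, but at 0.509 without the megakaryocyte-like cells, in which it was at 79.3.

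Notch signalling, which sorts arterial from venous and tip from stalk cells, had 5 of 8 filtered genes at least 2-fold higher and 1 lower (median 1.48; 16 genes in the list). The ligand Dll4 was at 35.3, 46.6, 37.6 and 22.4 CPM and had no UMI in mesenchymal cells. Nrarp, a Notch target that feeds back on the pathway, was at 79.1 CPM (2.80), Mfng, a glycosyltransferase that modifies Notch receptors, at 101 CPM (2.998) and Notch1 itself at 61.2 CPM (1.54). Hes1, a general Notch target, was no higher than in mesenchymal cells (56.6 against 81.6 CPM, difference -0.46). Notch2 was lower, at 5.21 against 68.8 CPM (-2.37).

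In the BMP and TGF-β list 4 of 14 filtered genes were at least 2-fold higher and 2 lower (median 0.41). Eng (endoglin), a co-receptor whose loss causes vascular malformations, was at 499, 671, 307 and 268 CPM, against 20.7 in mesenchymal cells (3.91). Its partner receptor Acvrl1 was at 57.9 CPM (1.98). Id3, a target of BMP signals, was abundant in both classes, at 576 and 437 CPM (0.39). Tgfb1, at 517 CPM (3.197), was at 351 (2.65) without the megakaryocyte-like cells, in which it reached 1267.

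Junction genes had 7 of 11 filtered members at least 2-fold higher and 1 lower, with a median of 3.26, and Cdh5 and Pecam1 among them are rule genes. Claudin 5 (Cldn5), the main claudin of endothelial tight junctions, was at 1441, 1528, 1226 and 900 CPM, against 0.282 in mesenchymal cells, a log2 difference of 6.99. Every library was thus far above the mesenchymal level. The megakaryocyte-like cells, which had Cldn5 at 1.15 CPM and lay mostly in libraries 3 and 4, lower the values there. The order of the libraries is therefore not read. Esam, an adhesion molecule at the same contacts, was at 463 CPM (5.24), F11r at 214 CPM (3.26) and the gap junction gene Gja4 at 129 CPM (3.77). Jam3 was lower (24.99 against 98.2 CPM, -1.63).

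Genes of caveolae, fenestrae and transport were mostly higher. Of 12 genes, all passed the filter, 10 were at least 2-fold higher and none lower (median 2.63), and 12 were higher without the megakaryocyte-like cells. Plvap, which forms the diaphragms of fenestrae and caveolae, was at 518, 801, 342 and 308 CPM, against 2.40 in mesenchymal cells (5.37). Cavin2 and Cav1, coat proteins of caveolae, were at 561 CPM (3.51) and 348 CPM (3.31). Gpihbp1, which anchors lipoprotein lipase in capillaries, was at 157 CPM (4.04), the fatty acid receptor Cd36 at 99.97 CPM (2.75), the water channel Aqp1 at 239.5 CPM (2.58) and the glucose carrier Slc2a1 at 175 CPM (2.17).

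Of 21 endothelial transcription factors, 19 passed the filter, 15 were at least 2-fold higher and 1 lower (median 2.36). The ETS factors Elk3, Ets1 and Fli1 were at 255 CPM (2.73), 175 CPM (2.44) and 137 CPM (2.51). Sox17, Sox18 and Sox7, a family that directs vessel formation and arterial identity, were at 77.1 CPM (3.08), 62.7 CPM (2.62) and 33.3 CPM (2.095). Lmo2, Hhex, Lyl1 and Tal1, which blood progenitors also express, were at 243, 88.5, 98.3 and 50.8 CPM. Tal1 was at 31.5 without the megakaryocyte-like cells. Erg, an ETS factor of mature endothelium, was detected at only 9.37 CPM and Etv2, which starts endothelial fate early in development, at 0.208, both under the filter. Klf4, a flow-induced factor, was lower than in mesenchymal cells (16.2 against 58.3 CPM, -1.38).

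Leukocyte adhesion genes and sialomucins had 9 of 10 filtered genes at least 2-fold higher and 1 lower (median 2.42). Icam2 was at 416, 534, 311 and 256 CPM, against 3.66 in mesenchymal cells (4.86). Cd93 and Clec14a, related lectin-like receptors of the vessel wall, were at 199 CPM (4.29) and 232 CPM (3.90), and Robo4, which stabilises vessels, at 91.0 CPM (3.32). The inflammatory adhesion molecules differed among themselves. Icam1 was at 72.7 CPM against 9.02 in mesenchymal cells (2.12) and Vcam1 at 23.5 against 141 (-2.17), while Selp at 4.17 CPM and Sele at 1.04 did not pass the filter. Madcam1, the vascular addressin, was at 33.0, 29.9, 78.8 and 110 CPM, with 21.9% of its UMIs in 1 cell.

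Of 14 genes of flow response and coagulation, 12 passed the filter, 10 were at least 2-fold higher and none lower (median 1.95). Ramp2, the partner of the adrenomedullin receptor, was at 770, 857, 472 and 435 CPM (2.94), and the receptor Calcrl at 60.8 CPM (2.18). Nos3, which makes nitric oxide, was at 39.2 CPM (2.28), the protein C receptor Procr at 39.4 CPM (2.03) and Tfpi, an inhibitor of clotting, at 181 CPM (1.14). Vwf, the platelet-binding clotting protein made by endothelium and megakaryocytes, was at 27.4, 44.8, 110 and 172 CPM, highest in library 4. Without the megakaryocyte-like cells, in which it was at 307, it was at 28.7 in place of 79.1 CPM (difference 1.93 in place of 3.14).

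Both stromal classes make basement membrane, and here 5 of 12 filtered genes were at least 2-fold higher in the endothelial cells and none lower (median 0.73). These were the collagen IV chains Col4a1 and Col4a2 (385 and 283 CPM), Col18a1 (256), Col15a1 (86.6) and Hspg2 (perlecan, 176), with differences of 2.27, 2.01, 2.34, 2.75 and 1.83. Sparc, at 1737 CPM, did not exceed the mesenchymal level of 2379 (-0.45).

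**Figure D2:**
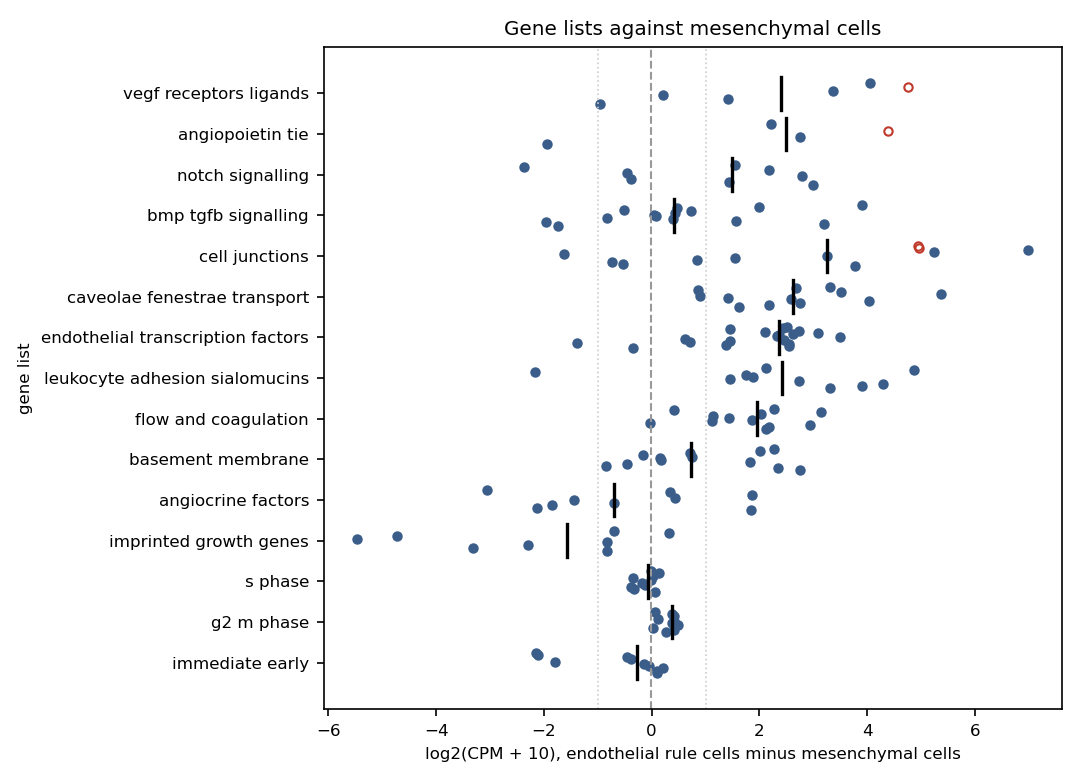
Each point is 1 gene, placed by the difference in log2(CPM + 10) between the cells of the endothelial rule and mesenchymal cells (horizontal axis) within 15 gene lists (vertical axis); black bars are list medians, the dashed line is the median of all genes compared, dotted lines mark 2-fold, and open red circles are rule genes. Junction genes had the highest median (3.26) and imprinted growth genes the lowest (-1.57).

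Factors that vessels supply to neighbouring cells showed another picture. Of 15 such genes 9 passed the filter, 2 were at least 2-fold higher and 4 lower (median -0.69). Higher were Apln (apelin), a tip-cell peptide, at 41.9 CPM (1.84), and Pdgfb, which recruits pericytes, at 30.4 CPM (1.86). Lower were Cxcl12, a chemokine that holds blood progenitors (21.0 against 247 CPM, -3.05), the growth factor Igf1 (71.0 against 209 CPM, -1.44), Rspo3 (-2.14) and Wnt2 (-1.85). The ligands that feed macrophages and osteoclasts were close to the detection limit in the endothelial cells. Csf1, a ligand of the Csf1r receptor, was at 8.12 CPM (39 UMIs, 95% interval 5.78 to 11.1), against 14.7 in mesenchymal cells. Il34, the other ligand of that receptor, gave 3 UMIs, Tnfsf11 (RANKL), the osteoclast differentiation factor, gave 4, and its decoy receptor Tnfrsf11b (osteoprotegerin) gave 12. Kitl, the ligand of the blood progenitor receptor Kit, was at 42.9 CPM against 31.6 (0.35).

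Imprinted growth genes, which are high in fetal tissue, were none higher and 4 of 8 lower than in mesenchymal cells (median -1.57). Meg3 was at 134, 174, 31.5 and 63.5 CPM, against 5245 (-5.46), Dlk1 at 94.6 against 2750 (-4.72), and Cdkn1c, an inhibitor of the cell cycle, at 563 against 2812 (-2.30). H19, a long noncoding RNA, was at 2254, 2610, 1633 and 1188 CPM, similar to the mesenchymal 1578 (0.32) and above the 55.6 of macrophages. Mest, an imprinted gene outside the list, was at 2979, 3306, 1805 and 1446 CPM, against 1124 in mesenchymal cells and 5.70 in macrophages.

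Cell cycle genes were near the mesenchymal level. None of 10 S phase genes (median -0.07) and none of 10 G2/M genes (median 0.38) differed 2-fold. Top2a, a topoisomerase of dividing cells, was at 239 CPM against 229, and Mki67 at 122 against 91.3. Of 10 immediate early genes, 3 were at least 2-fold lower (median -0.27): Fos was at 172 CPM against 799 (-2.15), Fosb at 23.1 against 133 (-2.11) and Egr1 at 77.7 against 293 (-1.79). Fos was low in every library (148, 188, 159 and 204 CPM). Jun was at 204, 251, 961 and 575 CPM, and the megakaryocyte-like cells had 1168, so its -0.45 became -1.12 without them.

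Outside the lists, the genes that most exceeded all other kept cells included further parts of the vessel wall. Gng11, a G protein subunit, was at 898, 1081, 597 and 687 CPM, against 6.81 in all other kept cells (5.66). Ecscr and Mmrn2, both endothelial surface or matrix proteins, were at 441 CPM (4.99) and 151 CPM (3.90), Rasip1, needed for vessel lumens, at 215 CPM (4.31) and Fabp4, a fatty acid binding protein of capillaries, at 473 CPM (5.24). Ehd3, a membrane-trafficking protein, was at 354 CPM (4.95), and Tm4sf1, S100a16, Crip2, Tinagl1, Fam167b, Gimap4 and Ctla2a had differences of 3.91 to 5.50. Serpinh1, a collagen chaperone, and Cavin3 were far above all other kept cells (3.92 and 3.98) but not above mesenchymal cells (-1.22 and 0.24). Timp3 was at 200 CPM, and at 130 without the megakaryocyte-like cells.

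Among themselves the cells fell into clusters that carried transcripts of named organs or vessel types. The clusters were drawn from the same cells, so the genes that set them apart are a description without a test. The share of all genes at least 2-fold higher in a cluster was not counted, so the marker counts of clusters have no background beside them. The 2 biggest clusters had 95 and 88 cells, and 39, 18, 14 and 13 cells were in the others. In the 253 cells outside the megakaryocyte-like cluster, Aplnr, Nr2f2 and Ephb4, markers of veins and plexus, stood at 368, 126 and 74.5 CPM. The arterial ligand Efnb2 stood at 29.5 CPM. No cluster had more than 3 of the 10 arterial markers at least 2-fold higher.

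The cluster of 95 cells was liver sinusoidal endothelial-like. It had 8 of 10 sinusoidal markers at least 2-fold higher than the other endothelial cells, 2 of them (Bmp2 and F8) held out of the clustering. Stab2, a scavenger receptor for hyaluronan, was at 592 CPM against 5.51 in the others and had a UMI in 91 of 95 cells, and the liver gene Oit3 was at 719 CPM against 4.93. Bmp2, a signal from sinusoids to hepatocytes in iron control, was at 238 CPM, and F8, clotting factor VIII, at 66.4 CPM. Gata4, a transcription factor of sinusoidal fate, was at 133 CPM in 67 of 95 cells, and Gpr182, a decoy receptor for chemokines, at 812 CPM. These levels were similar in the 4 libraries, with Stab2 at 550, 717, 503 and 543 CPM and Oit3 at 649, 819, 830 and 649. The cells numbered 43, 29, 8 and 15 in libraries 1 to 4.

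The sinusoidal-like cells held scavenger genes that macrophages also hold, and lower levels of other macrophage genes. The macrophages were chosen by Csf1r and C1q, so their levels of those genes are fixed by that choice. Lyve1, a hyaluronan receptor, was at 1389 CPM in them and 322 in macrophages. Stab1, the related scavenger receptor, was at 321 and 484 CPM, and the mannose receptor Mrc1 at 297 and 522 CPM. Mrc1 had a UMI in 85 of 95 sinusoidal-like cells, and its level in the libraries was 289, 343, 251 and 264 CPM. Csf1r, held at 3 UMIs or fewer by the rule, was at 32.5 against 957 CPM, and C1qb, a complement gene of macrophages, at 203 against 3756. Tyrobp, an adaptor of myeloid receptors, was at 129 against 2374 CPM, and Cx3cr1, the driver gene of 1 Cre line, at 5.90 against 436. Macrophage transcripts moved with this cluster: C1qb, C1qc and Mrc1, 3 of 10 markers, were at least 2-fold higher than in the other endothelial cells, with C1qb at 203 against 66.7 CPM and C1qc at 137 against 50.8. The 10 markers summed to 1099 CPM and none was at 0. Hepatocyte transcripts also moved with this cluster, 7 of 8 being at least 2-fold higher than in the other endothelial cells, but 71.9% of its Alb UMIs and 66.1% of its Afp UMIs came from 1 cell. The part of mixed droplets was not tested.

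**Figure D3:**
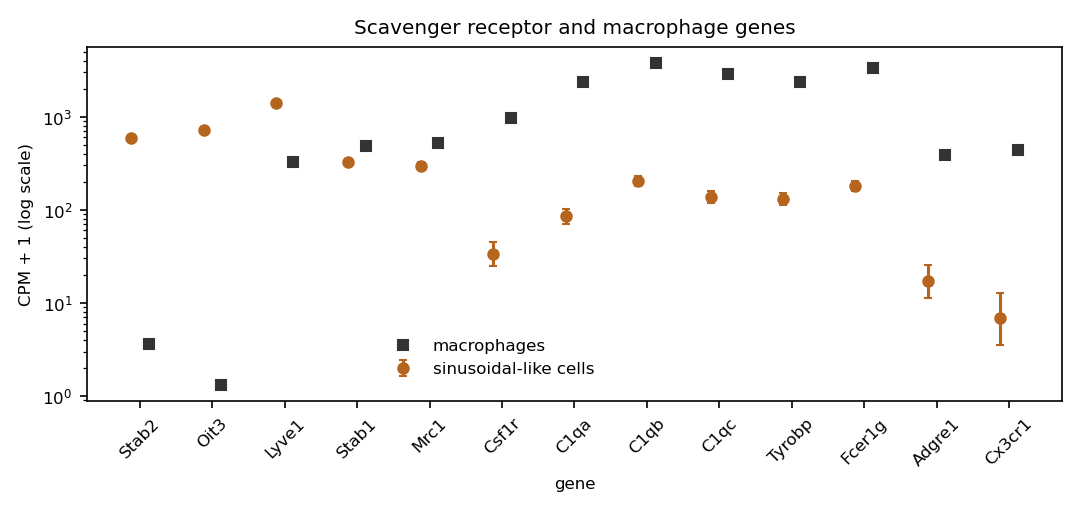
CPM plus 1 on a log axis for 13 genes in the 95 sinusoidal-like cells (circles, with 95% Poisson intervals) and in macrophages (squares). Stab1 and Mrc1 were of like level in both classes, Stab2 and Oit3 were high in the sinusoidal-like cells and near 0 in macrophages, and Csf1r, C1q and the other macrophage genes were far lower in the sinusoidal-like cells.

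The held-out lists separated the sinusoidal-like cells too. Aqp1 was at 697 CPM in them, against 239.5 in all 267 cells, and Calcrl at 151 against 60.8. Vcam1 was at 76.0 CPM in them and at 4.11 CPM in the cluster of 88 cells. Cav1, by contrast, was at 28.8 CPM against 816 in that cluster, while Plvap was high in both (615 and 876 CPM). Cd34 was at 113 and 716 CPM, and Col15a1 at 0.738 and 259 CPM.

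The cluster of 88 cells was Aplnr- and Col15a1-rich and was left unnamed, because no endothelial subtype list had 3 markers 2-fold higher. Aplnr, the apelin receptor, was at 1008, 1125, 274 and 396 CPM in libraries 1 to 4, higher in libraries 1 and 2. Its ligand Apln was at 112 CPM, against 1.48 in the sinusoidal-like cells. The cluster had the highest Cdh5 (762 CPM), Pecam1 (576 CPM) and Cav1 of the 6 clusters, and the transcription factor Tcf15, which regulates fatty acid uptake in capillaries, was at 166 CPM in 62 of 88 cells. Some of its leading genes came from single cells. Of its Cd74 UMIs 96.7% were in 1 cell, of its S100a8 UMIs 87.9%, of its Cma1 UMIs 93.4% and of its Cpa3 UMIs 90.1%, all genes of antigen-presenting, granulocytic or mast cells. The arterial gene Gja5 reached 30.1 CPM there, with 90.9% of its UMIs in 3 cells.

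The cluster of 39 cells was lymphatic endothelial-like, with 8 of 9 lymphatic markers at least 2-fold higher. Prox1 was at 275, 200, 554 and 247 CPM in libraries 1 to 4 and at 2.67 CPM in the other endothelial cells. Pdpn (podoplanin) was at 231 CPM and had no UMI in the other 228 cells. Flt4, held out of the clustering, was at 293 CPM, Reln at 194, and Mmrn1 at 666 CPM. Ccl21a, a chemokine that guides dendritic cells and lymphocytes into lymphatic vessels, was at 19004 CPM with a UMI in 39 of 39 cells. Near-identical copies of Ccl21a exist in the mouse genome, so the split of reads between them is uncertain. The cells also had Nrp2 at 737 CPM, Pgf at 117 CPM and the gap junction gene Gja1 at 339 CPM, and low Esam (29.6 CPM), Cd34 (26.7 CPM) and Nrp1 (4.45 CPM). Library 1 held 27 of the 39 cells, libraries 2 to 4 held 8, 3 and 1.

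The cluster of 18 cells was brain endothelial-like, with 9 of 10 brain markers at least 2-fold higher; the tenth, Apcdd1, had no UMI. Mfsd2a, a lipid carrier of the blood-brain barrier, and the glucose carrier Slc2a1, both held out of the clustering, were at 393 and 1685 CPM, against 0 and 32.5 CPM in the sinusoidal-like cells. Slc7a5, which carries large neutral amino acids, was at 1208 CPM in 18 of 18 cells, Slco1c1, a thyroid hormone carrier, at 265 and the transcription factor Foxq1 at 252 CPM. Cldn5 was at 5743 CPM, higher than in any other cluster, Ocln (occludin) at 62.2 and Plvap at 157 CPM. Markers of other types moved with this cluster too. Of them 5 of 9 pericyte or smooth muscle, 5 of 10 erythroid, 4 of 10 tip-cell and 3 of 10 arterial markers were at least 2-fold higher. Among transcripts of pericytes, the cells that wrap brain capillaries, Rgs5 was at 965 CPM with UMIs in 7 of 18 cells. Kcnj8 was at 131 CPM in 6 and Higd1b at 344 CPM in 6. Hba-a1 was at 4340 CPM with 97.9% of its UMIs in 1 cell. The part of mixed droplets was not tested. The cells numbered 5, 3, 7 and 3 in the libraries.

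The cluster of 13 cells was Npr3- and Igfbp5-rich and was left unnamed. Npr3, a natriuretic peptide receptor of the endocardium, had a UMI in 13 of 13 cells at 349 CPM, against 3.0 CPM in the other endothelial cells. Hand2, a cardiac transcription factor, was at 267 CPM in 12 cells, with 44.4% of its UMIs in 1. Of 8 endocardial markers 4 were at least 2-fold higher, but Cytl1 and Gata5 had UMIs in only 3 and 2 cells, and markers of other types moved with the cluster. Of 9 mesenchymal markers 3 were at least 2-fold higher than in the other endothelial cells (Postn at 259.99 CPM, Col3a1 at 178 in 10 cells and Col1a2 at 52.0 in 4), and of 9 pericyte or smooth muscle markers 2 (Pdgfrb and Acta2, in 5 and 3 cells). Their part was not tested. Igfbp5 was at 1582 CPM, Cdkn1c at 6619 CPM and H19 at 11744 CPM. Emcn was high (1129 CPM) and Cldn5 low (14.9 CPM). G2/M genes were low, with Top2a at 37.1 CPM against 283 in the cluster of 88 cells and Mki67 at 14.9 against 116. Of the Ccl2 UMIs in the cluster, 86.3% came from 1 cell.

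**Figure D4:**
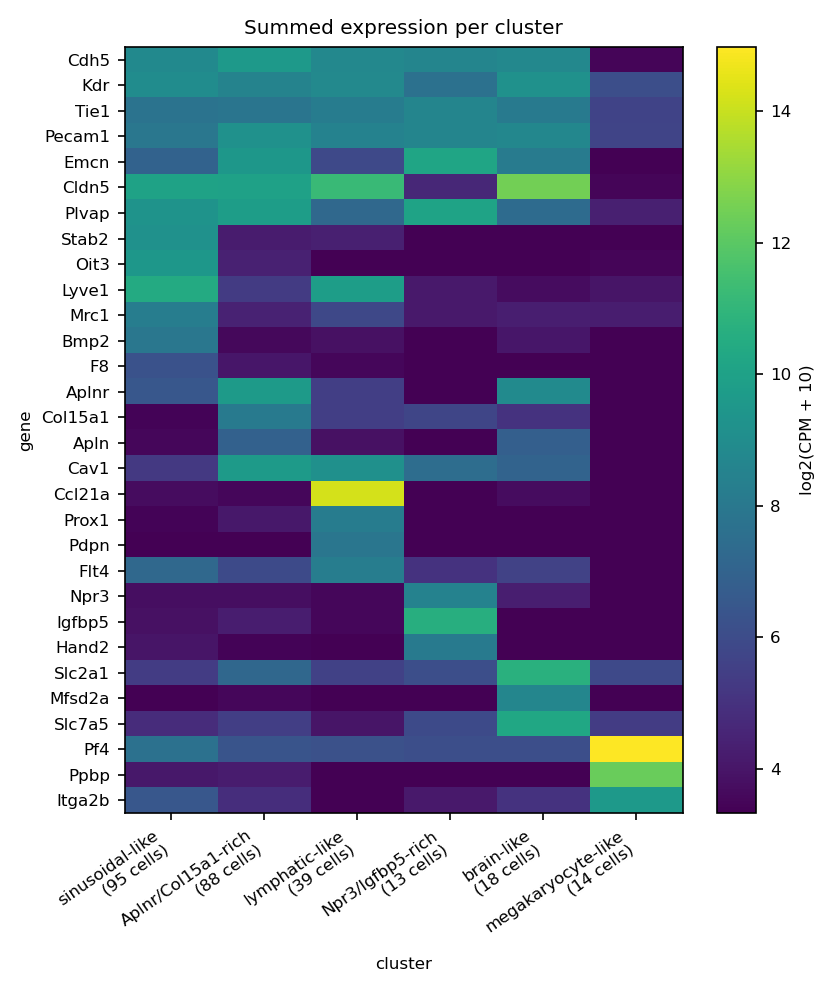
Summed expression of 30 genes (rows) in the 6 clusters (columns, with cell numbers) as log2(CPM + 10). Cdh5 and Kdr were high in 5 clusters and low in the 14 megakaryocyte-like cells (1.15 and 59.8 CPM), and each organ or vessel type had its own block.

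The lineage reporter tdTomato was read in each library, since its low level in libraries 1 and 2 and high level in libraries 3 and 4 was part of how the cells were chosen for study. In the endothelial cells it was at 20.7 CPM (95% interval 14.6 to 28.5), 27.1 (18.1 to 38.9), 266 (232 to 303) and 185 (161 to 212) in libraries 1 to 4. Without the megakaryocyte-like cells it was at 20.7, 27.1, 380 and 259 CPM. Mesenchymal cells, which are not of the lineage the drivers were chosen to mark, were at 19.1, 17.0, 48.8 and 71.6 CPM and hepatocytes at 18.3, 36.4, 55.3 and 74.9. The endothelial interval held both of these levels in library 1 and the hepatocyte but not the mesenchymal level in library 2, and in libraries 3 and 4 it lay above both. Macrophages were at 142, 202, 226 and 237 CPM, so in libraries 3 and 4 the endothelial level was of the same order. Erythroid cells were at 8.58, 9.54, 129 and 132 CPM and showed the same split between libraries.

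Shares of cells were read at 1 depth. After each cell was thinned to 2000 UMIs, a tdTomato UMI was found in 8.11% of endothelial cells in library 1 (exact 95% interval 3.77 to 14.8), 5.48% in library 2 (1.51 to 13.4), 37.5% in library 3 (21.1 to 56.3) and 37.8% in library 4 (23.8 to 53.5). Without the megakaryocyte-like cells these shares were 8.26%, 5.48%, 39.3% and 43.2%. The same shares in mesenchymal cells, taken as the background of free RNA, were 5.603%, 4%, 5.77% and 9.66%, at median depths of 10468 UMIs for mesenchymal and 13387 for endothelial cells. In hepatocytes, with 9 to 23 cells in a library, the shares were 11.1%, 11.1%, 13.04% and 10%. In erythroid cells they were 2.04%, 4.88%, 17.4% and 20.6%. In macrophages they were 19.1%, 26.2%, 29.9% and 30.7%. Thinning left out 6 endothelial cells, 3 each in libraries 1 and 3. Unthinned, the endothelial shares were 25.4%, 28.8%, 74.3% and 62.2%. In libraries 1 and 2 the thinned shares overlap the mesenchymal background, and a labelled endothelial cell was not detectable above it at this depth. In libraries 3 and 4 the endothelial intervals lay above the mesenchymal ones (2.15 to 12.1 and 5.73 to 15.01). They overlapped those of hepatocytes (2.78 to 33.6 and 1.23 to 31.7) and of erythroid cells (13.4 to 22.0 and 16.7 to 24.99). Without megakaryocyte-like cells, the endothelial interval lay above the erythroid one in library 4 (27.1 to 60.5), not library 3 (21.5 to 59.4).

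Among the named clusters, the sinusoidal-like cells had the highest tdTomato in libraries 3 and 4. Their level was 21.9 CPM (11.6 to 37.4), 22.9 (10.5 to 43.4), 716 (591 to 861) and 538 (443 to 648) in libraries 1 to 4. The values of libraries 3 and 4 were above those of macrophages in the same libraries, but came from 8 and 15 cells. The Aplnr- and Col15a1-rich cells were at 20.6, 24.7, 237 and 175 CPM. Lymphatic-like cells were at 18.5 and 48.4 CPM in libraries 1 and 2, with 3 cells in library 3 (2 UMIs) and 1 in library 4 (no UMI), too few to read. Brain-like cells had 22 UMIs in the 7 cells of library 3 (413 CPM) and from 0 to 2 UMIs in each other library. The megakaryocyte-like cells were at 71.9 CPM in library 3 and 83.0 in library 4.

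The reporter was concentrated in some cells. With at least 5 UMIs, a threshold chosen after the values were seen, tdTomato was found in none of 114 and 73 endothelial cells in libraries 1 and 2, in 15 of 35 in library 3 and in 14 of 45 in library 4. Without the megakaryocyte-like cells it was found in 12 of 31 and 11 of 37. The highest count in a cell was 3 UMIs in library 1 and 4 in library 2. The threshold was set above these counts, so the absence there follows from its choice and gives no bound on labelled cells. Of the sinusoidal-like cells 4 of 8 in library 3 and 7 of 15 in library 4 passed it, and of the mesenchymal cells 3 of 105 and 5 of 182. Hepatocytes passed in 2 of 25 and 2 of 32, and macrophages in 731 of 2598 and 1231 of 4188. Erythroid cells passed in 125 of 322 and 136 of 398, at higher median depths of 37535 and 35432 UMIs. Ptprc (CD45), a gene of blood cells, was at 17.2 CPM in the 12 cells of library 3 with at least 5 UMIs and at 14.0 in the 19 with fewer, the megakaryocyte-like cells left out. In library 4 it was at 0 in the 11 cells and at 11.4 CPM in the 26.

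C1q, a macrophage transcript, was set beside tdTomato in the same cells. In the sinusoidal-like cells the summed C1q level was 220 CPM in library 3 and 288 in library 4, lower than the 521 and 432 of libraries 1 and 2. Within library 4, however, C1q was higher in the 7 cells with at least 5 tdTomato UMIs than in the 8 with fewer (514 against 174 CPM). Within library 3 it was 315 against 118 CPM. The median C1q UMIs of a cell were closer, 3 against 2.5 in library 4 (median depths 9336 and 17005.5 UMIs) and 3 against 1 in library 3. Single cells weigh on these sums. In libraries 1 to 4 the highest cell held 60 of 310, 56 of 170, 20 of 35 and 16 of 60 C1q UMIs.

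**Figure D5:**
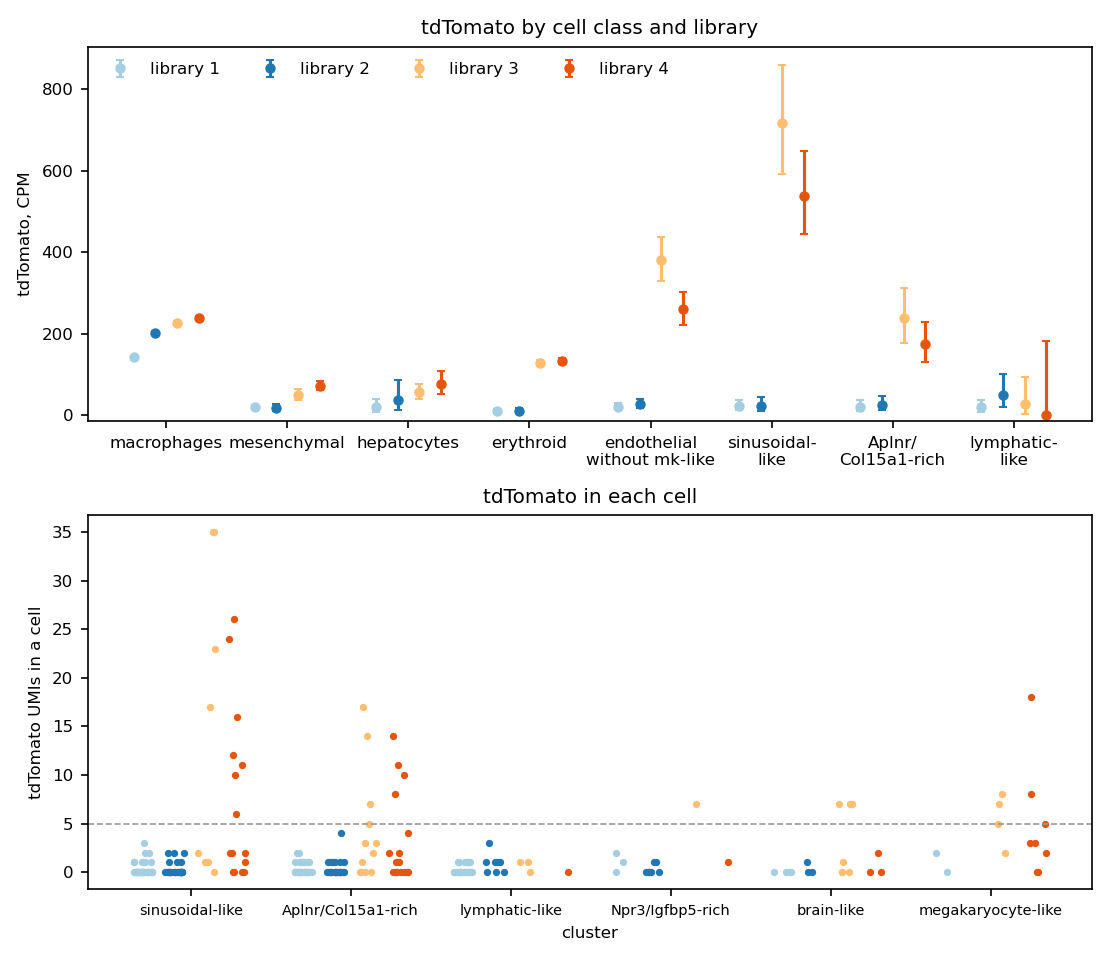
Top, tdTomato CPM in each library (colours) for macrophages, mesenchymal cells, hepatocytes, erythroid cells, the 253 endothelial cells and 3 of their clusters, with 95% Poisson intervals. Bottom, tdTomato UMIs in each cell by cluster and library, with the dashed line at 5 UMIs. Sinusoidal-like cells of libraries 3 and 4 (716 and 538 CPM) lie above those of libraries 1 and 2 (21.9 and 22.9 CPM), and no cell of libraries 1 and 2 reached 5 UMIs.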

How the data were processed

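The series holds droplet-based single-cell RNA sequencing (10x Genomics 3-prime kit, per the labels' protocols) of 6 labelled samples. The authors deposited 1 matrix of UMI counts of 31054 features, tdTomato among them, by 39048 barcodes, not normalized. The file headers give Cell Ranger 3.0.1 as its source; version 2.1.1 and the mm10 build stand in the submitters' processing notes. The 4 barcode numbers match no label, so the tests between groups could not be made. The libraries held 127153052, 106500620, 129007371 and 198754246 UMIs.

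The cells, gene lists and reference classes were chosen with earlier results of these data known. Of the barcodes 4461 failed the quality filter. CPM are sums of counts over a class, in all or in 1 library, per 1000000 UMIs of that class, with exact Poisson intervals. Differences are in log2(CPM + 10) with a filter of 20 CPM. Shares have exact Clopper-Pearson intervals. The 267 cells were clustered with the Leiden algorithm (scanpy 1.11.5, python-igraph 0.11.9; 1000 variable genes, 15 components, 15 neighbours, resolution 0.6, no correction between libraries) without the 186 genes of the lists and tdTomato. A cluster was named from marker lists fixed in the plan, with a 2-fold difference from the other clusters. Scrublet, run per library, marked 1, 0, 214 and 0 barcodes, too few in libraries 1, 2 and 4 for the caller to have worked, so doublets were kept in and its calls used only as an alternative. TMM factors came from edgeR 4.0.16. The calculation of differences was checked on simulated counts; no difference between classes has a test.

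Genes named in the text are the rule genes, the 4 most abundant members of each list with all members of at least 20 CPM that differ 4-fold from mesenchymal cells, and the 20 genes outside the lists highest against all other kept cells (at least 50 CPM, same direction in each library). Cluster markers and further list members, such as Vegfa, Erg, Csf1, Il34 and Tnfsf11, were named after their values were seen. Reference classes had at most 1 of the 6 rule markers; erythroid cells had UMIs of at least 3 of 6 red-cell genes, and hepatocytes at least 2% of UMIs in 5 liver genes. Gene symbols are those of the matrix.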

Additional observations from a re-analysis of the deposited data

How the results depend on the processing

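The number of endothelial cells was between 182 (no Csf1r UMI allowed) and 266 under the other settings of the rule, and 153 to 232 when 1 library was left out; without library 1, which held the most, it was 153. Against all other kept cells, genes 4-fold or more higher numbered 300 to 368, apart from 617 with a pseudocount of 1 in place of 10, and 323 to 339 when 1 library was left out. List genes at least 2-fold higher than in mesenchymal cells numbered 72 to 75 when 1 library was left out, against 74. The thinned share of cells with tdTomato, 16.1% over all libraries, was 11.6% to 22.0% when 1 library was left out (11.6% without library 4, 22.0% without library 1), and 39.0% unthinned, or 25.4%, 28.8%, 74.3% and 62.2% in libraries 1 to 4. Of 15 list medians, 14 kept their sign in all 12 settings and that of S phase genes changed it in 3. All 30 of the named genes followed kept theirs. They were the 6 rule genes, Csf1r, Col1a1, Col1a2, tdTomato and the 20 genes outside the lists that were highest in this same comparison. Their signs were largely fixed by that choice, so keeping them is no support. Clusters numbered 5 to 9 against 6; the lymphatic-like and brain-like clusters came back with 39 and 18 cells at resolution 1.0, whereas 46 of 95 sinusoidal-like cells stayed in 1 cluster there. With no Csf1r UMI allowed, the 6 remaining megakaryocyte-like cells fell in a cluster of 61 cells and did not form one of their own. Leaving out the megakaryocyte-like cells, and requiring a Cdh5 UMI, were alternatives chosen after seeing the data. No paired analysis was possible because the barcode numbers match no sample label. Clusters of 13 to 39 cells limit what can be read per library.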

Other observations

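Some values of the endothelial clusters belong to no comparison above. The transcription factor Lmo2 was at 93.7 CPM in the sinusoidal-like cells and 573 in the brain-like cells, and Cd34 at 113 and 903 CPM. Ednrb, an endothelin receptor, was at 512 CPM and Ece1, which activates endothelin, at 505 in the 13 Npr3- and Igfbp5-rich cells, against 58.3 and 101 in the sinusoidal-like cells. Fn1 (fibronectin) was at 2117 CPM in the Npr3- and Igfbp5-rich cells and at 33.2 in the sinusoidal-like cells. Itga2b, counted as a megakaryocyte and a haemogenic marker, had a UMI in 52 of 95 sinusoidal-like cells, at 79.7 CPM, and no UMI in the 39 lymphatic-like cells, where Runx1 was at 1.48 CPM. Adm, the peptide that acts through Ramp2 and Calcrl, was at 124 CPM in the brain-like cells and 14.8 in the sinusoidal-like cells.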
